A study of Drosophila melanogaster with 10 samples.

Results

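The mitochondrial ribosomal protein genes of *Drosophila melanogaster* were examined in RNA sequenced from wing imaginal disks. They were taken as every gene of the count table whose symbol begins with mRpL or mRpS followed by a digit, which gave 72 of 17807 gene IDs. By the letter of their symbols, 47 were counted to the large subunit (mRpL) and 25 to the small subunit (mRpS). A 73rd symbol in the annotation fits the same pattern, mRpS5, but its ID was not among the 17807. The rule uses symbols and no measured value, but it was chosen with earlier results of these data known.

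Disks were dissected late in the third instar from larvae kept at 25 °C, and every group carried the MS1096-Gal4 driver. The GFP group expressed GFP and served as the control (MS1096 > GFP). The other groups expressed GFP-tagged forms of Naked cuticle (Nkd), an inhibitor of Wingless signaling. These were the full protein (Nkd, labelled Nkd_GFPC), a form without the region that binds Dishevelled (NkdΔR1S, labelled Nkd_del_R1S_GFPC), and forms that each lack a potential nuclear localization signal (NkdΔ30aa and NkdΔD6, labelled Nkd_del_30aa_GFPC and Nkd_del_D6_GFPC). Each group had 2 RNA samples of about 70 disks. MS1096-Gal4 is active mainly in the wing pouch, so each sample pools cells that express the transgene with cells that do not, and fewer cells of a kind cannot be told apart from less RNA per cell. The samples of a group are described as biological duplicates, but separate crosses are not stated, so p-values reflect only how far these samples spread, which may be technical in part. All comparisons with GFP share the same 2 GFP libraries, and all comparisons with Nkd share the same 2 Nkd libraries.

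Mitochondria carry their own ribosomes, which translate the few messages of the mitochondrial genome, all of them subunits of the respiratory chain and the ATP synthase. The RNA of these ribosomes comes from the mitochondrial genome, but their proteins are encoded in the nucleus, made in the cytoplasm and imported. Some of the proteins descend from those of bacterial ribosomes and others exist only in mitochondria. The small subunit reads the messenger RNA and the large subunit joins the amino acids.

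The libraries held 18695697 to 20941842 counts. Listed markers of the wing disk were present in every library, with 11 of 11 genes over 5 CPM (counts scaled to a common library size after TMM normalization). Replicates 1 and 2 summed to 742 and 1029 CPM in GFP, 1137 and 1258 in Nkd, and 962 and 1188 in NkdΔR1S. They summed to 1601 and 1723 CPM in NkdΔ30aa, above all other libraries, and to 1351 and 1281 CPM in NkdΔD6. The part of this difference in the values of the mitochondrial ribosomal protein genes was not tested. The haltere marker Ubx had 3.86 to 14.6 CPM. Markers of other larval tissues were also present and varied by library. The 9 salivary gland genes summed to 15469 CPM in Nkd replicate 1 and to 4227 CPM in GFP replicate 1, against 50.6 to 1344 CPM in the other libraries. The 6 fat body genes found summed to 488 to 3420 CPM, the 8 muscle genes to 81.4 to 354 CPM, the 8 hemocyte genes to 24.4 to 110.0 CPM and the 8 gut genes to 10.4 to 1531 CPM, and no listed marker was at 0 in all libraries. The transgene check gave nkd levels of 37.3 and 70.1 CPM in the GFP libraries, 1141 and 1190 CPM in Nkd, 345 and 512 CPM in NkdΔR1S, 1176 and 1498 CPM in NkdΔ30aa, and 1349 and 993 CPM in NkdΔD6. The libraries of NkdΔR1S thus held less nkd RNA than those of the other Nkd groups and did not overlap with them.

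The 72 genes are short and lie on all the large chromosome arms, with 21 on 3R, 16 on 3L, 12 on 2L, 12 on 2R and 11 on X. Their exon lengths, as given with the deposited counts, ran from 327 to 2078 bases with a median of 783. The median over the 9264 genes tested was 2020 bases, and 10.2% of the genes tested were shorter than 783 bases. mRpS30 was the only member longer than 2020 bases. The span of all 72 genes in the count table equalled the reference annotation of the same build (BDGP6), and all 72 are protein coding.

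Of the 72 genes, 71 passed the expression filter and were tested, each with at least 204 counts in every library. The gene that did not pass was mRpL53 (FBgn0050481, chromosome 2R from 13954195 to 13955664), with 0 counts in every library. All of its exon bases (100%) are shared with other annotated genes, among them CG33155 on the same strand, which itself had 1 to 6 counts per library. Exon sharing was common in the family. In 43 members at least 1 base was shared with another gene, and in 8 the share exceeded 20%.

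The members with a large shared part were mRpL53, mRpS24 (55.3%, with TBC1d7), mRpS21 (48.0%, with CG8870), mRpS14 (35.8%, with Naa15-16), mRpL13 (35.2%, with CG10602), mRpS9 (25.1%, with ArgRS-m), mRpL17 (23.6%, with CG34263) and mRpL48 (20.8%, with frtz). The partner lies on the same strand for mRpL53 and mRpL13 and on the opposite strand for the others. The sources used here do not give the strand setting of the counting, and the values of these 8 genes are uncertain. The pair of mRpS9 and ArgRS-m joins a ribosomal protein with the enzyme that charges a mitochondrial transfer RNA with arginine.

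CPM values were divided by exon length in kilobases (FPKM) to compare levels between genes. On this scale the 71 genes detected covered a narrow range, from 25.7 to 130.1 FPKM as means of the 10 libraries, and the median of all 72 was 56.5 FPKM. The highest by this mean was mRpL12, whose bacterial counterpart forms the stalk that binds translation factors (FBgn0011787, chromosome 3L from 8956791 to 8957584), at 130.1 FPKM. It was followed by mRpS16 at 109 FPKM, mRpL30 at 103 FPKM and mRpS7 at 99.7 FPKM, the last a counterpart of the bacterial protein that organizes the head of the small subunit. The order at the top is not resolved, since mRpS16 was above mRpL12 in GFP replicate 1 (174 against 156 FPKM) and in NkdΔR1S replicate 1 (131 against 118 FPKM). At the low end, after mRpL53, stood mRpS24 at 25.7 FPKM and mRpL21 at 26.4 FPKM. mRpL21 ranged over 22.1 to 36.1 FPKM and mRpS24 over 16.3 to 38.9 FPKM among the libraries, so their order is not resolved.

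The family took between 0.301% and 0.427% of all counts in a library. Replicates 1 and 2 gave 0.427% and 0.381% in GFP, 0.326% and 0.356% in Nkd, 0.381% and 0.364% in NkdΔR1S, 0.304% and 0.301% in NkdΔ30aa, and 0.359% and 0.353% in NkdΔD6. Summed over the members, the TMM-normalized level was 4718 and 4040 CPM in GFP, 3117 and 3333 CPM in Nkd, 4019 and 3527 CPM in NkdΔR1S, 3008 and 2927 CPM in NkdΔ30aa, and 3582 and 3436 CPM in NkdΔD6. Both GFP libraries were above all other libraries on the summed level, and both NkdΔ30aa libraries were below all others.

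The members moved together from library to library. Each gene was expressed as its log2 CPM minus its mean over the 10 libraries, called its deviation here, and the median over the 71 genes was taken. This median was 0.45 and 0.21 in GFP replicates 1 and 2, with 70 and 68 of the 71 genes above their own mean. It was -0.18 and -0.09 in Nkd, 0.23 and 0.03 in NkdΔR1S, -0.25 and -0.29 in NkdΔ30aa with 67 of 71 genes below their mean in both, and 0.02 and -0.04 in NkdΔD6. The groups GFP and NkdΔ30aa were thus the extremes, and replicates 1 and 2 of GFP and of NkdΔR1S differed from each other by about as much as some groups did.

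Other short genes showed nearly the same values. As a reference, 2049 genes tested outside the family were taken whose exon length lies between 546 and 1277 bases, the 10th and 90th percentiles of the members. They were matched on exon length only and not on expression level. Their median deviation was 0.40 and 0.23 in GFP, -0.09 and -0.13 in Nkd, 0.24 and 0.03 in NkdΔR1S, -0.27 and -0.30 in NkdΔ30aa, and -0.10 and -0.03 in NkdΔD6. Members differed from these genes by at most 0.12 in any library, in NkdΔD6 replicate 1. Across the genes tested outside the family, the rank correlation between exon length and the deviation was -0.61 and -0.48 in GFP, -0.01 and 0.29 in Nkd, -0.42 and -0.03 in NkdΔR1S, 0.62 and 0.55 in NkdΔ30aa, and 0.28 and 0.14 in NkdΔD6. These are correlations across genes of 1 library, which share its depth and base composition, and carry no p. The libraries in which members were high were those in which short genes as a whole were high, and what part this has in the members' values was not tested.

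**Figure D1:**
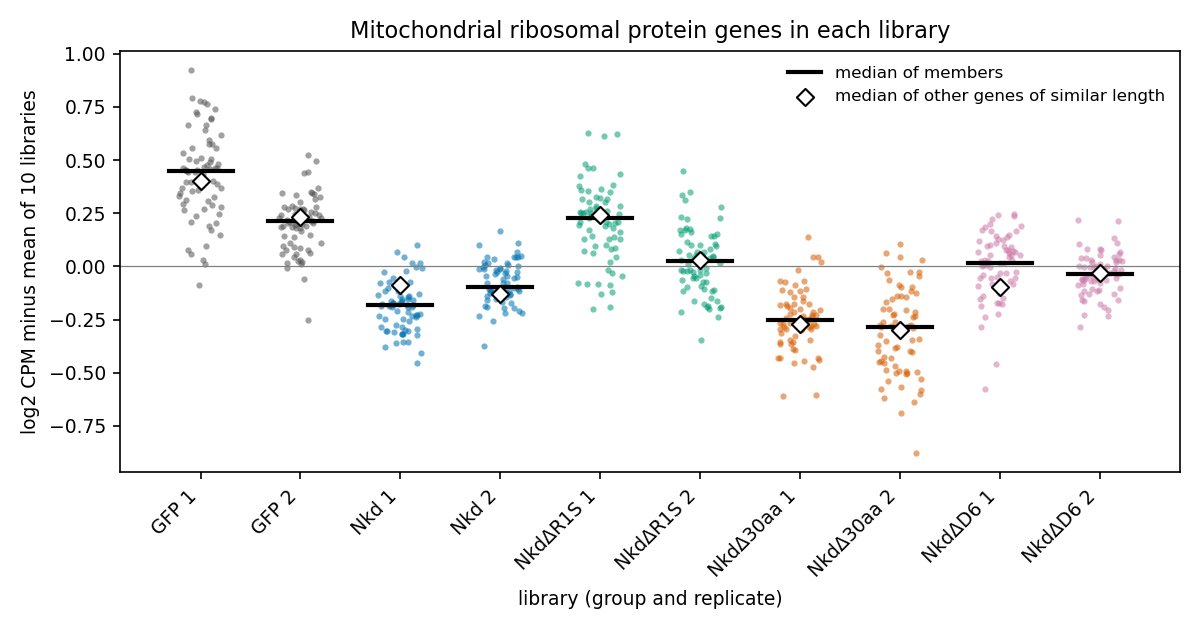
Deviation of each tested mitochondrial ribosomal protein gene from its own mean over the 10 libraries (log2 CPM, vertical axis) in each library (horizontal axis). Each point is 1 of 71 genes, the bar is their median, and the diamond is the median of 2049 other genes of similar exon length. The medians run from 0.45 in GFP replicate 1 to -0.29 in NkdΔ30aa replicate 2, and the diamonds lie within 0.12 of the bars.

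Over the 10 libraries, the deviation of a member correlated with the mean deviation of the other members with a median Pearson r of 0.92, and 65 of 71 genes had r over 0.5. The first principal component held 83.8% of the variance of the members. When the median of similar-length genes was subtracted from each library, the median r was 0.36. These r describe 10 libraries in 5 groups and carry no p.

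A minority of members did not follow the others. The r was negative in 5 genes: mRpL37 (-0.53), mRpL3 (-0.32), mRpS30 (-0.26), mRpL45 (-0.03) and mRpS9 (-0.02). All 5 have exons of 1243 bases or more, but other members of such length followed the family. These were mRpS29 (1440 bases, r 0.97), mRpS31 (1277 bases, 0.85), mRpS22 (1341 bases, 0.85), mRpL21 (1696 bases, 0.73) and mRpL38 (1399 bases, 0.68). The SD of log2 CPM over the 10 libraries was smallest in mRpS9 (0.08), mRpL3 (0.11) and mRpS30 (0.12), and largest in mRpL33 (0.57), mRpS21 (0.50) and mRpL34 (0.42), whose exons are 349, 475 and 327 bases long.

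For mRpL3, whose bacterial counterpart lies close to the site of peptide bond formation (FBgn0030686, chromosome X from 15761248 to 15762663), replicates 1 and 2 gave 53.1 and 42.9 CPM in GFP, 52.6 and 51.5 in Nkd, 49.4 and 47.8 in NkdΔR1S, 52.6 and 52.6 in NkdΔ30aa, and 57.4 and 51.9 in NkdΔD6. mRpS30 (FBgn0030692, chromosome X from 15786047 to 15788288), which is counted to the small subunit here by its symbol although its mammalian counterpart sits in the large subunit, had 124.6 and 124.3 CPM in GFP, 120.1 and 125.9 in Nkd, 106.8 and 107.1 in NkdΔR1S, 123.9 and 131.3 in NkdΔ30aa, and 140.0 and 119.7 in NkdΔD6. mRpS9 (FBgn0037529, chromosome 3R from 7889277 to 7902667) stayed between 42.9 and 50.1 CPM in all 10 libraries. None of these 3 genes passed the test in any of the 7 comparisons.

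The comparisons ask how each form of Nkd changed transcript levels relative to GFP, and how each deleted form differed from full-length Nkd. Counts were tested with edgeR's quasi-likelihood F test in 1 fit of the 10 libraries, with Benjamini-Hochberg adjustment over the 9264 genes tested. Genes were called where the fold change exceeded 1.5 in either direction with an adjusted p below 0.05. A negative log2 fold change means a lower level in the group named first.

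In NkdΔ30aa disks, 37 of the 71 genes fell relative to GFP and none rose. They were 21 of 46 tested genes of the large subunit and 16 of 25 of the small subunit, with log2 fold changes of -0.59 to -1.28. Over all genes tested, 12.8% were lower and 18.2% higher in this comparison. The share of members called lower was 52.1%, against 33.2% of the 2049 other genes of similar length. These genes were not matched on expression level, on which shares called or without overlap also depend. The median log2 fold change was -0.59 over the members, -0.64 over genes of similar length and -0.13 over all genes tested, and 68 of 71 members had a negative value. In 67 of 71 members both NkdΔ30aa libraries were below both GFP libraries, which held for 42.4% of all genes tested and 75.2% of those of similar length. Without GFP replicate 1, the library with the highest members, fewer genes were called, in the members and over all genes tested. The median log2 fold change was then -0.49 over the members and -0.07 over all genes tested.

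mRpL33 (FBgn0040907, chromosome X from 4321764 to 4322231), a counterpart of the bacterial large subunit protein L33, showed the largest decrease of the family. Replicates 1 and 2 gave 50.8 and 42.2 CPM in GFP, 25.1 and 28.7 in Nkd, 45.2 and 40.1 in NkdΔR1S, 22.3 and 15.9 in NkdΔ30aa, and 19.6 and 24.0 in NkdΔD6. The libraries of GFP and NkdΔR1S lay together at the top, and those of the 3 other groups were all below them. From GFP to NkdΔ30aa the level fell from 46.5 ± 6.10 to 19.1 ± 4.54 CPM (SD, n = 2 per group) (log2 fold change -1.28, standard error 0.19, edgeR adjusted p = 0.00139). None of its exon bases are shared with another gene.

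mRpS21 (FBgn0044511, chromosome 3R from 13381276 to 13381809), a small subunit protein also found in bacteria, had 46.0 and 24.7 CPM in GFP, 21.5 and 23.4 in Nkd, 37.0 and 29.3 in NkdΔR1S, 15.8 and 14.97 in NkdΔ30aa, and 19.8 and 23.6 in NkdΔD6. Its GFP libraries differed strongly from each other, but both were above those of NkdΔ30aa. Its change from GFP to NkdΔ30aa was -1.20 on the log2 scale (standard error 0.27, edgeR adjusted p = 0.00699) and -0.68 without GFP replicate 1, and the gene shares 48.0% of its exon bases with CG8870.

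mRpL36 (FBgn0042112, chromosome 3L from 8124584 to 8125132), a very small large-subunit protein that bacteria also have, had 73.1 and 51.4 CPM in GFP, 35.0 and 32.9 in Nkd, 51.7 and 44.8 in NkdΔR1S, 30.7 and 31.2 in NkdΔ30aa, and 46.4 and 45.2 in NkdΔD6. The libraries of Nkd and NkdΔ30aa were below all others. It fell from 62.3 ± 15.4 to 30.9 ± 0.307 CPM (SD, n = 2 per group) in NkdΔ30aa (log2 fold change -1.01, standard error 0.16, edgeR adjusted p = 0.00173).

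In Nkd disks, 14 members fell relative to GFP and none rose. They were 8 of 46 genes of the large subunit and 6 of 25 of the small subunit, with log2 fold changes of -0.61 to -0.88. The background was 4.51% of all genes called lower and 3.05% called higher. The members' share was 19.7%, against 13.03% of genes of similar length, which were again not matched on expression level. Their median log2 fold change was -0.46, that of genes of similar length -0.41 and that of all genes -0.05, and 68 of 71 members had a negative value. Both Nkd libraries lay below both GFP libraries in 63 members, or 88.7%, against 64.0% of genes of similar length and 36.1% of all genes tested. The calls depended on single libraries. Without GFP replicate 1, Nkd replicate 1 or Nkd replicate 2 they were lost in the members and mostly lost over all genes tested. The members' median log2 fold change was -0.36 without GFP replicate 1 and -0.44 without GFP replicate 2. It was -0.29 without Nkd replicate 1, which holds the high salivary gland markers, and -0.45 without Nkd replicate 2. The medians of all genes tested in these fits were -0.02, 0.08, -0.03 and 0.09. The part of the salivary gland markers in these values was not tested.

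mRpS17 (FBgn0034986, chromosome 2R from 24173665 to 24174441), whose bacterial counterpart binds the RNA of the small subunit early in assembly, had 74.5 and 54.0 CPM in GFP, 31.6 and 38.0 in Nkd, 58.3 and 48.8 in NkdΔR1S, 35.3 and 31.9 in NkdΔ30aa, and 38.5 and 39.7 in NkdΔD6. It fell from 64.2 ± 14.4 to 34.8 ± 4.55 CPM (SD, n = 2 per group) in Nkd (log2 fold change -0.88, standard error 0.17, edgeR adjusted p = 0.0238). NkdΔR1S overlapped with GFP for this gene, and the 3 other groups did not. mRpL36 changed by the same amount in Nkd, -0.88 (standard error 0.16, adjusted p = 0.0231). mRpS28 (FBgn0034361, chromosome 2R from 18614210 to 18615018), another small subunit gene, had 71.7 and 59.9 CPM in GFP and 36.2 and 37.9 CPM in Nkd (log2 fold change -0.83, standard error 0.17, edgeR adjusted p = 0.0253). These 3 calls were lost without GFP replicate 1, Nkd replicate 1 or Nkd replicate 2, with adjusted p of 0.074 to 0.14, while the log2 fold changes lay between -0.60 and -0.93.

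In NkdΔD6 disks, 6 members fell relative to GFP and none rose, namely mRpL33, mRpL34, mRpS7, mRpS16, mRpS17 and mRpS34. The background was 5.81% lower and 10.4% higher over all genes. The members' share of 8.45% was below the 12.5% of genes of similar length. Their median log2 fold change was -0.33, against -0.39 in genes of similar length and -0.10 in all genes, and 65 of 71 members had a negative value. Without GFP replicate 1 or NkdΔD6 replicate 1 the calls were lost in the members and lost or nearly lost over all genes tested. Without NkdΔD6 replicate 2 there were fewer calls in both. The members' median was -0.21 and -0.36 without GFP replicates 1 and 2, and -0.30 and -0.23 without NkdΔD6 replicates 1 and 2. The medians of all genes tested in these fits were -0.05, 0.0003, -0.02 and -0.05.

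mRpL33 had the largest decrease here too, to 21.8 ± 3.11 CPM (SD, n = 2) (log2 fold change -1.09, standard error 0.19, edgeR adjusted p = 0.0102). mRpL34 (FBgn0083983, chromosome 2R from 16098948 to 16099337), the shortest member and a counterpart of the bacterial protein L34, had 31.8 and 33.9 CPM in GFP, 22.2 and 25.0 in Nkd, 38.6 and 31.4 in NkdΔR1S, 20.3 and 16.2 in NkdΔ30aa, and 18.1 and 21.2 in NkdΔD6. In NkdΔD6 its change was -0.74 on the log2 scale (standard error 0.16, edgeR adjusted p = 0.0143), and that of mRpS17 was -0.72 (standard error 0.17, edgeR adjusted p = 0.0195). The GFP and NkdΔR1S libraries were again the high ones for mRpL34. These 3 calls were lost without GFP replicate 1 or NkdΔD6 replicate 1, that of mRpL34 also without GFP replicate 2 and that of mRpS17 also without NkdΔD6 replicate 2.

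In NkdΔR1S disks, no member was called in either direction by edgeR, and DESeq2 on the 4 libraries called none either. The share of all genes called was 0.119% lower and 0.054% higher. At an unadjusted p under 0.05, edgeR gave 19 of 71 members lower and 0 higher, against 285 of 2049 genes of similar length lower and 31 higher, and 863 of 9264 genes lower and 984 higher. The median log2 fold change was -0.19, against -0.18 for genes of similar length and -0.03 for all genes, and 66 of 71 members had a negative value. The change of mRpL33 was -0.13 on the log2 scale (standard error 0.19, edgeR adjusted p = 0.732) and that of mRpS17 was -0.26 (standard error 0.17, edgeR adjusted p = 0.412). The lower nkd level of the NkdΔR1S libraries stands beside these values, and its part in them was not tested.

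Lower calls in 3 comparisons with GFP were made for 4 members, mRpL33, mRpS7, mRpS16 and mRpS17. A further 11 were called in 2 comparisons, 23 in 1 and 33 of the 71 in none. mRpS16 (FBgn0033907, chromosome 2R from 14172986 to 14173596), a small subunit protein shared with bacteria, had 95.0 and 72.2 CPM in GFP, 46.6 and 52.7 in Nkd, 71.6 and 61.9 in NkdΔR1S, 44.9 and 40.4 in NkdΔ30aa, and 53.6 and 54.3 in NkdΔD6. mRpS7 (FBgn0032236, chromosome 2L from 10386662 to 10387652) had 141 and 112 CPM in GFP, 75.5 and 81.7 in Nkd, 106 and 100.4 in NkdΔR1S, 71.5 and 66.0 in NkdΔ30aa, and 75.4 and 84.3 in NkdΔD6. In both genes NkdΔR1S lay between GFP and the other groups, with no library overlapping. The log2 fold changes of mRpS7 were -0.69 in Nkd, -0.88 in NkdΔ30aa and -0.67 in NkdΔD6, and those of mRpS16 were -0.75, -0.97 and -0.63.

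**Figure D2:**
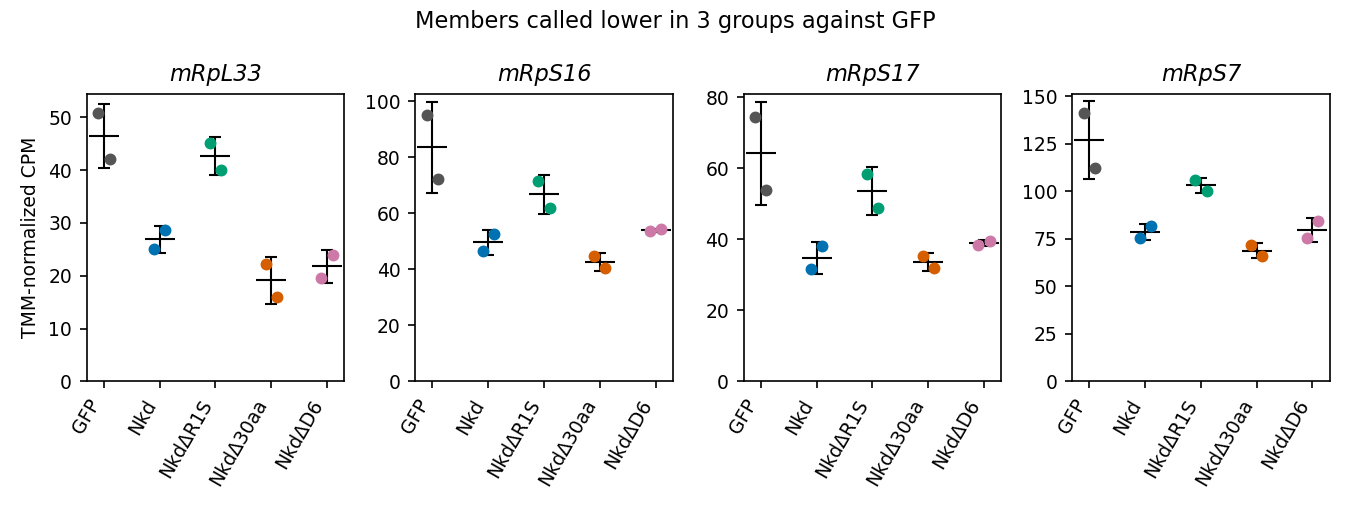
Levels of mRpL33, mRpS16, mRpS17 and mRpS7 (TMM-normalized CPM, vertical axis from 0) by group (horizontal axis). Points are the 2 libraries of a group, the bar is their mean and the whiskers are 1 SD on each side. The GFP libraries are above those of Nkd, NkdΔ30aa and NkdΔD6 in all 4 genes, for mRpL33 at 50.8 and 42.2 against 28.7 CPM or less.

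Against Nkd, no member was called in any of the deleted forms by edgeR. In NkdΔR1S the median log2 fold change was 0.29 with 62 of 71 members positive, against 0.22 in genes of similar length and 0.00 in all genes. At an unadjusted p under 0.05, 30 of 71 members were higher and 1 was lower, against 536 of 2049 genes of similar length higher and 41 lower, and 975 of 9264 genes higher and 478 lower. DESeq2 called no member, and edgeR called 0.13% of all genes higher and 0.054% lower. In NkdΔ30aa the median was -0.13, against -0.19 in genes of similar length, with 0 of 71 members higher and 8 lower at an unadjusted p under 0.05. At that threshold 36 of 2049 genes of similar length were higher and 293 lower, as were 1801 and 718 of 9264 genes. DESeq2 called 1 member lower there, mRpS21, and edgeR called 5.86% of all genes higher and 0.82% lower. In NkdΔD6 the median was 0.14, against 0.03 in genes of similar length. In NkdΔD6, 4 of 71 members were higher and 0 lower at an unadjusted p under 0.05, against 126 of 2049 genes of similar length higher and 79 lower, and 626 of 9264 genes higher and 482 lower. DESeq2 called no member, and edgeR called 0.0756% of all genes higher and 0.054% lower.

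Within the family, the shorter genes had the larger decreases. In NkdΔ30aa against GFP, the 24 genes of 327 to 704 bases had a median log2 fold change of -0.85 and 20 of them were called lower. The 23 genes of 707 to 917 bases had a median of -0.59 with 12 called, and the 24 genes of 924 to 2078 bases had a median of -0.40 with 5 called. The corresponding counts were 8, 6 and 0 in Nkd, and 3, 3 and 0 in NkdΔD6. The rank correlation of exon length and log2 fold change over the members was 0.65 in NkdΔ30aa, 0.55 in Nkd and 0.50 in NkdΔD6, and over the 9193 other genes tested it was 0.66, 0.55 and 0.51. In NkdΔR1S the values were -0.14 over the members and 0.42 over the other genes. All of these are across genes of the same libraries and carry no p.

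**Figure D3:**
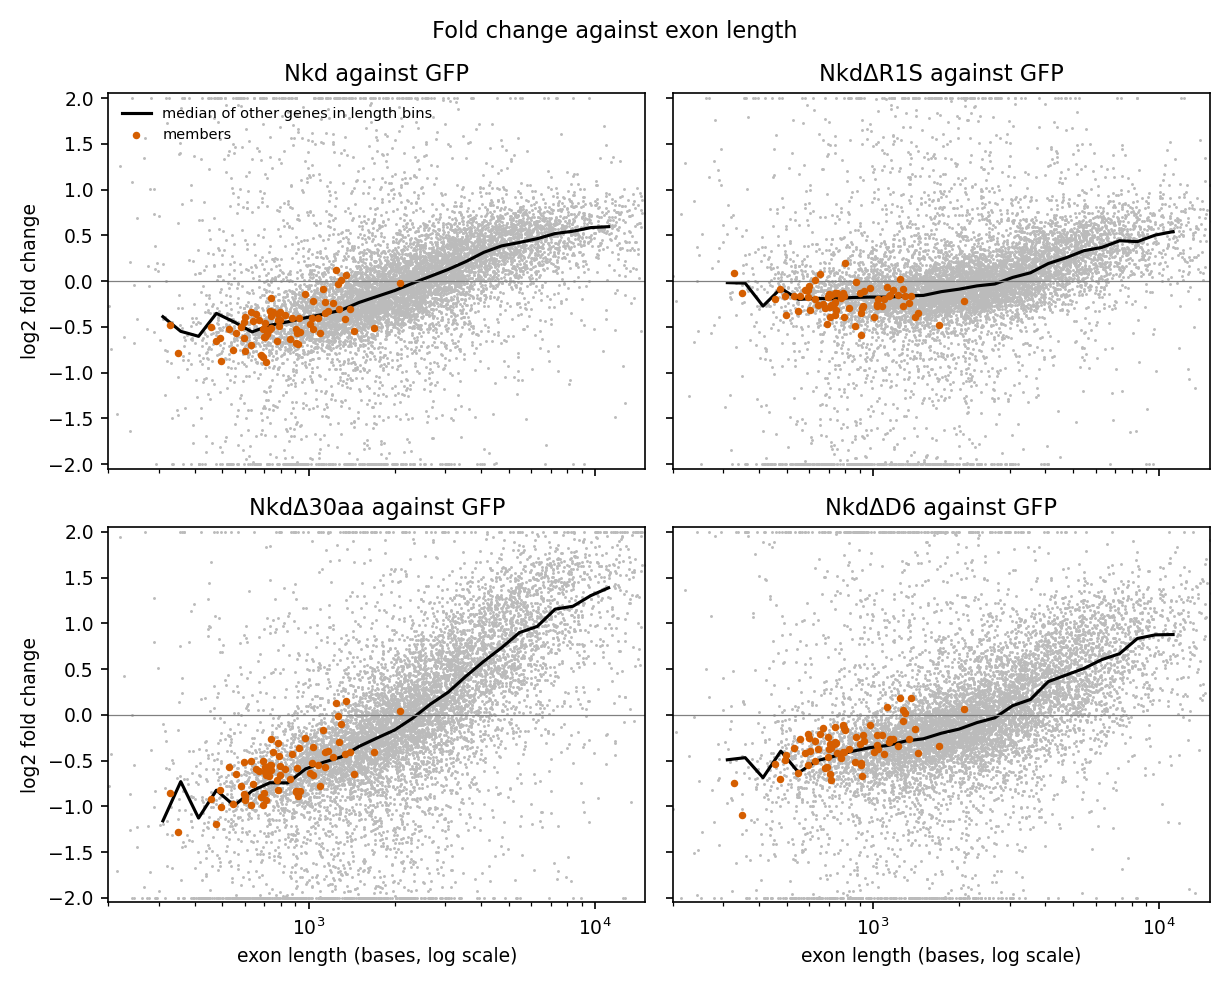
Log2 fold change against GFP (vertical axis, values beyond 2 drawn at the edge) by exon length in bases (horizontal axis, log scale), for each form of Nkd. Grey points are all other genes tested, the line is their median in length bins, and orange points are the 71 members. Members lie around the line in all 4 panels, at a median of -0.59 in NkdΔ30aa where genes of similar length have -0.64.

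Each member was also set against the other genes tested within 10% of its own exon length, of which there were 32 to 1021. The median difference of the log2 fold change was -0.02 in Nkd, -0.03 in NkdΔR1S, 0.09 in NkdΔ30aa and 0.09 in NkdΔD6, all against GFP. In NkdΔ30aa, 47 of 71 members were above and 24 below their length neighbours, and in Nkd 31 were above and 40 below. Single genes stood further off. mRpL33 had differences of -0.48 in NkdΔ30aa and -0.60 in NkdΔD6, and mRpL36 had a difference of -0.46 in Nkd. mRpL3 had differences of 0.45 in Nkd, 0.62 in NkdΔ30aa and 0.50 in NkdΔD6.

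The same was seen when the fit included, for every library, an offset for its smooth trend on exon length. In this fit 83 of 9264 genes tested were called in Nkd, 896 in NkdΔ30aa and 554 in NkdΔD6. Without offsets 283 genes were higher and 418 lower in Nkd, 1686 and 1183 in NkdΔ30aa, and 959 and 538 in NkdΔD6. Of the members, none was called in Nkd by edgeR (3 higher and 12 lower at an unadjusted p under 0.05), with 1 in NkdΔ30aa and 1 in NkdΔD6. The members' medians became -0.06, 0.047 and 0.051, against -0.05, -0.02 and -0.04 over all genes tested. The call in NkdΔD6 was mRpL33, lower at -0.59 (adjusted p = 0.0298). In NkdΔ30aa mRpL33 had -0.45 (adjusted p = 0.0518), and in Nkd it had -0.33 (adjusted p = 0.244). The other changes named above also lost their calls with the offsets. In Nkd the values were -0.43 for mRpS17, -0.37 for mRpL36 and -0.38 for mRpS28 (adjusted p = 0.119 to 0.159). In NkdΔ30aa they were -0.32 for mRpS21 and -0.16 for mRpL36 (adjusted p = 0.236 and 0.349), and in NkdΔD6 -0.26 for mRpL34 and -0.29 for mRpS17 (adjusted p = 0.278 and 0.16). The call in NkdΔ30aa was mRpL3, which was higher at 0.60 (adjusted p = 0.00809) although its CPM in those libraries, 52.6 and 52.6, lay within the range of the GFP libraries. In this fit, 4 further members had an adjusted p under 0.05 in NkdΔ30aa with a fold change under 1.5, all of them higher: mRpL37 (0.56), mRpL12 (0.45), mRpL45 (0.43) and mRpS9 (0.34). mRpL37 and mRpL45 were singled out after their values had been seen. The offsets shifted the median of all genes tested by 0.11 in NkdΔ30aa, and by less in the other comparisons with GFP.

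**Figure D4:**
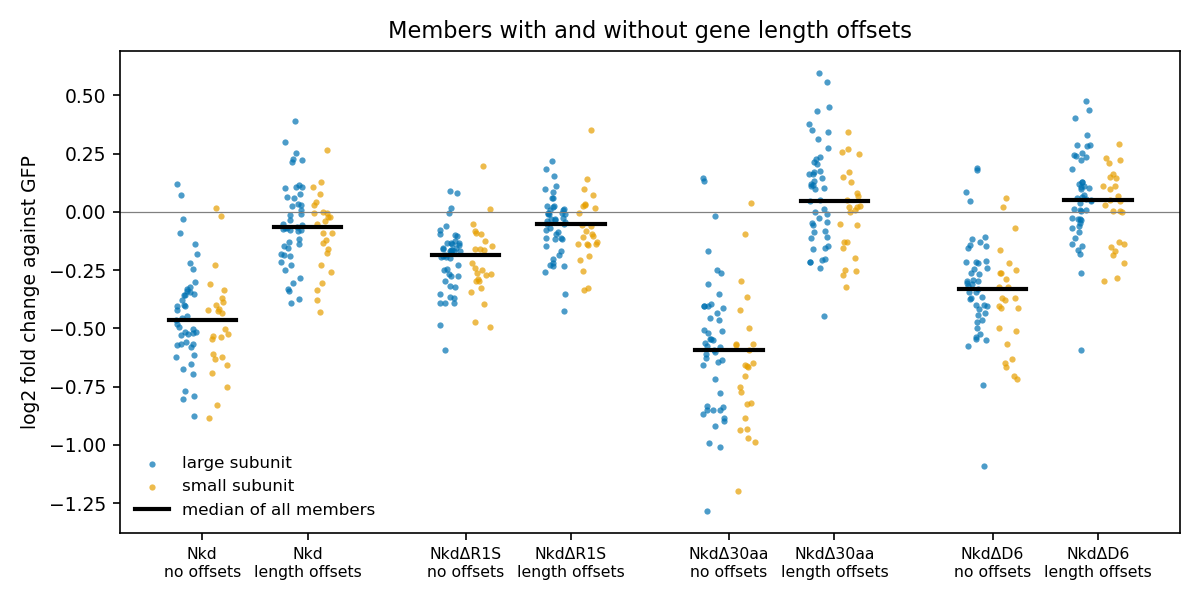
Log2 fold changes against GFP (vertical axis) of 46 large subunit and 25 small subunit genes in each form of Nkd, without and with an offset for each library's trend on exon length (horizontal axis). Points are genes and bars are medians of all 71. The medians move from -0.46 to -0.06 in Nkd, from -0.19 to -0.05 in NkdΔR1S, from -0.59 to 0.047 in NkdΔ30aa and from -0.33 to 0.051 in NkdΔD6.

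Medians of the genes counted to the large and small subunit, by the letter of their symbols alone, lay close to each other. The median log2 fold changes were -0.46 and -0.50 in Nkd, -0.17 and -0.24 in NkdΔR1S, -0.57 and -0.66 in NkdΔ30aa, and -0.31 and -0.37 in NkdΔD6, all against GFP. With length offsets the medians of the large and small subunit were 0.10 and 0.02 in NkdΔ30aa. The difference between the subunits was not tested.

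Mitoribosomal proteins are also encoded by genes outside the naming pattern. tko, which encodes the counterpart of the decoding protein S12 and whose mutants are sensitive to mechanical shock, fell by 0.86 on the log2 scale in NkdΔ30aa (standard error 0.22, adjusted p = 0.0146) and by 0.73 in NkdΔD6 (standard error 0.22, adjusted p = 0.0443). Its GFP libraries had 135 and 104 CPM, those of NkdΔ30aa 74.2 and 58.0 CPM and those of NkdΔD6 68.2 and 76.2 CPM. bonsai, the counterpart of S15, had log2 fold changes of -0.46 in Nkd, -0.49 in NkdΔ30aa and -0.32 in NkdΔD6. The annotation also gives mRpS4 as a synonym of CG4866. A synonym alone does not show that its product is mitoribosomal, and this was not checked here. CG4866 had -0.59, -0.69 and -0.48. The signs were those of the family in all 3 genes.

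Other genes that serve mitochondrial translation or gene expression were counted for comparison. For this list and those that follow, the shares of all genes tested called lower and higher against GFP serve as background. They were 4.51% and 3.05% in Nkd, 0.119% and 0.054% in NkdΔR1S, 12.8% and 18.2% in NkdΔ30aa, and 5.81% and 10.4% in NkdΔD6. All calls in NkdΔD6 against GFP, that of tko among them, were lost without NkdΔD6 replicate 1. Of 15 mitochondrial aminoacyl-tRNA synthetase genes, with a median exon length of 2552 bases, none was lower against GFP. In NkdΔ30aa, AspRS-m was higher at 1.12 (standard error 0.17, adjusted p = 0.0015) and AlaRS-m at 0.63 (standard error 0.13, adjusted p = 0.00415), and AspRS-m was also higher in NkdΔD6 at 0.80 (adjusted p = 0.0143). The exons of AspRS-m and AlaRS-m are 4422 and 3233 bases long.

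The list of factors of mitochondrial gene expression held 21 tested genes. Among them were tko and bonsai, already given above, and genes that copy mitochondrial DNA, such as PolG1. In NkdΔ30aa, 3 of the 21 fell: tko, TFAM, which packages mitochondrial DNA (-0.61), and mRRF1, the ribosome recycling factor (-0.68). PolrMT, the mitochondrial RNA polymerase (0.96), and PolG1, the catalytic subunit of the mitochondrial DNA polymerase (1.17), rose. In NkdΔD6, mRRF1 (-1.18) and tko fell, and PolrMT (0.60) and PolG1 (0.72) rose. The exons of PolrMT and PolG1 are 4718 and 3679 bases long, and those of TFAM and mRRF1 are 1242 and 891 bases long. No factor was called in Nkd or in NkdΔR1S against GFP. Over all genes tested, 12.8% were lower and 18.2% higher in NkdΔ30aa, and 5.81% and 10.4% in NkdΔD6. No difference of the factors from these shares was tested.

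Of 14 tested genes of protein import into mitochondria, 5 fell in NkdΔ30aa: Tom7 (-0.90), Tim23 (-0.83), Tim8 (-0.81), Tim9a (-0.78) and Tim17b (-0.71), which encode parts of the translocases of the outer and inner membrane and their chaperones. In NkdΔD6, 2 of them fell, Tim8 (-0.68) and Tom7 (-0.64), and none was called in Nkd or NkdΔR1S. The 14 genes had a median exon length of 1036.5 bases. Of the 2049 genes similar in length to the members, 33.2% were lower in NkdΔ30aa and 12.5% in NkdΔD6. The median log2 fold changes of the 14 were -0.38 in NkdΔ30aa and -0.19 in NkdΔD6, and -0.06 and -0.07 with length offsets. Of 65 tested nuclear genes of oxidative phosphorylation, 15 were lower in Nkd, 0 in NkdΔR1S, 32 in NkdΔ30aa and 5 in NkdΔD6 against GFP, and none was higher. Their median exon length was 871 bases and their median log2 fold changes were -0.45, -0.17, -0.63 and -0.25. With length offsets these medians were -0.12, -0.03, -0.01 and 0.09.

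The proteins of the cytoplasmic ribosome, whose genes have a median exon length of 921.5 bases, gave like values. Of 86 tested genes, 31 were lower in Nkd, 0 in NkdΔR1S, 55 in NkdΔ30aa and 14 in NkdΔD6, with medians of -0.54, -0.20, -0.67 and -0.42, and 1 was higher in NkdΔ30aa and in NkdΔD6. With length offsets their medians were -0.18, -0.07, -0.05 and -0.06. The messages of the mitochondrial genome, which the mitoribosome translates, could not be set beside these genes, because the 38 mitochondrial rows of the count table held 0 counts in total.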

How the data were processed

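The values come from 10 libraries of wing disk RNA, 2 for each of 5 groups. Per the authors' methods, reads were mapped to BDGP6 by HISAT2 2.2.1 and assigned to genes by featureCounts. The table deposited by the authors holds the resulting raw counts and each gene's exon length in bases. Its strand setting, and whether it counts reads or fragments, were not found in the sources. Library totals were similar (18695697 to 20941842), and the precision of a group's value rests on 2 samples.

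The test was the robust quasi-likelihood F test of edgeR 4.0.16 in R 4.3.3, after TMM and filterByExpr by group, in 1 fit of all libraries with group as the only factor (5 residual degrees of freedom). P-values were adjusted by Benjamini-Hochberg over 9264 genes, out of 14420 with a count. The standard error is the size of the log2 fold change over the square root of F. FPKM was computed from TMM-normalized CPM and exon length. No set test was run. Members named with a test are, in each of the 7 comparisons, the 3 largest called changes in each direction among genes of 5 CPM or more whose groups do not overlap. Those named for level or spread are the 4 highest and 3 lowest by FPKM and the 3 with the largest and smallest SD. The members, lists and tests were chosen with earlier results of these data known.

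Alternatives were tried as follows: RLE in place of TMM, no expression filter, DESeq2 1.42.0 on the groups compared, the replicate number as a block, length offsets (lowess, span 0.3, prior count 2), no fold threshold, and leaving out each replicate. The code was tested on simulated data. Symbols came from the annotation, where 17710 of 17807 IDs matched, and 6 of 29 listed factor symbols matched no gene. Promoters and sequences were not analysed here.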

Additional observations from a re-analysis of the deposited data

How the results depend on the processing

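No member rose or fell against Nkd, or in NkdΔR1S against GFP, under any alternative of edgeR, and DESeq2 on the 2 groups called 1 member, mRpS21, in NkdΔ30aa against Nkd. For Nkd against GFP the count of members called, 14, became 9 with RLE normalization, 7 with no filter, 9 with DESeq2, 0 with gene length offsets and 36 with no fold threshold, and it ranged from 0 to 13 when 1 replicate was left out. For NkdΔ30aa the 37 calls became 1 with length offsets, in the other direction (mRpL3), and 58 with no fold threshold, and ranged from 23 to 41 with a replicate left out. For NkdΔD6 the 6 calls became 4 with RLE normalization, 3 with no filter, 3 with DESeq2, 1 with length offsets and 19 with no fold threshold. With a replicate left out the members' median was -0.21 to -0.36, and the calls were lost in the fits named above. The median log2 fold change of the members changed sign with length offsets in NkdΔ30aa (0.047) and NkdΔD6 (0.051), and in NkdΔ30aa against Nkd (0.12). The causes of these differences were not tested. With the replicate block the counts were 14, 37 and 6, for the same members. Deviations of same-numbered samples correlated at -0.22 to -0.05 in pairs with NkdΔD6 and at 0.03 to 0.37 in the others. Of the 10 pairs, 5 were over 0.1. The numbers were not taken to pair the samples, and whether samples pair under another numbering was not tested. Of the 9 named changes, all 9 kept their call with RLE normalization, no filter, the block and DESeq2, 1 with length offsets (mRpL33 in NkdΔD6), 3 without GFP replicate 1 and 8 without GFP replicate 2. Without 1 of its own libraries, the 3 named in Nkd kept 0 calls in both cases, the 3 in NkdΔ30aa kept 3 in both, and the 3 in NkdΔD6 kept 0 without replicate 1 and 2 without replicate 2. Fits without 1 library assume that the lone library of a group varies like the other groups. The median of all genes moved by 0.10 with no filter, 0.13 without GFP replicate 2 and 0.14 without Nkd replicate 2 in Nkd, and by 0.11 with offsets in NkdΔ30aa.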
